A study of Mus musculus with 24 samples.

Results

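The glucocorticoid response was followed in cultured mouse fat cell precursors through 7 genes: the receptor gene Nr3c1, the enzyme gene Hsd11b1, and the targets Fkbp5, Tsc22d3, Zbtb16, Dusp1 and Sgk1. The 7 members were chosen by symbol, each matched 1 Ensembl gene among the 37310 genes of the expression tables, and all 7 passed the filter on low values along with 14095 genes in all. RNA had been sequenced from stromal vascular cells, a mixed cell fraction of fat in which the precursors of adipocytes are found. They came from C57BL/6 mice aged 6 weeks, from the inguinal white depot (WAT) and from the interscapular brown depot (BAT). Every culture was kept for 4 days in an induction medium with serum, insulin, dexamethasone (a synthetic glucocorticoid) and IBMX (a phosphodiesterase inhibitor that raises cAMP). From day 4 to day 8 every culture received a differentiation medium with insulin and triiodothyronine (T3, a thyroid hormone). EGCG (epigallocatechin gallate, the main green tea catechin) was added to the EGCG cultures and DMSO to the control cultures, at a dose the labels do not give. Cells were collected on day 4 and on day 8, which gave 8 groups of 3 libraries: WAT day 4 control, WAT day 4 EGCG, WAT day 8 control, WAT day 8 EGCG and the same 4 for BAT. No library came from cells that had never met dexamethasone, so the size of the induction on day 4 was not measured here. Between the days dexamethasone and IBMX left the medium together and T3 entered it, and the 3 steps cannot be told apart.

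Glucocorticoids bind the receptor encoded by Nr3c1, which moves to the nucleus and acts on genes near its binding sites, called glucocorticoid response elements. The enzyme 11-beta-hydroxysteroid dehydrogenase type 1, the product of Hsd11b1, turns inactive 11-keto steroids back into active glucocorticoid inside the cell. Dexamethasone is a standard part of the cocktails that start adipocyte differentiation in culture, and Fkbp5, Tsc22d3 (which encodes GILZ), Zbtb16 (PLZF), Dusp1 and Sgk1 are widely used readouts of the receptor.

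To show where the receptor could bind near the members, the full palindromic element, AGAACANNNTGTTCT, was searched within 10 kb of every annotated transcript start of 22380 protein-coding genes (build NCBIM37), which covers both strands because the motif is its own reverse complement. A match lay near 140 of these genes (0.626%), and 2 of the 6 members searched had one, Fkbp5 and Sgk1. Nr3c1 was not searched. The 3 matches are shown because they are the full elements found near members, and the capitals mark the letters that the motif fixes.
Fkbp5, within the gene outside the exons, chr17:28557266-28557280, plus strand: AGAACAcccTGTTCT
Fkbp5, within the gene outside the exons, chr17:28579364-28579378, plus strand: AGAACAagcTGTTCT
Sgk1, within the gene outside the exons, chr10:21713507-21713521, plus strand: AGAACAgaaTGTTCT

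The nearest transcript starts were 8301 bases away for the first Fkbp5 match, at -704 bases for the second (upstream of a start), and at -182 bases for the Sgk1 match. In RefSeq promoter windows (GRCm38.p6, 250 bases before to 50 after a start), 12 windows belonged to 5 members, and Zbtb16 was not among them. A half-site (AGAACA or TGTTCT) was present in 4 of these 12, against 6233 of all 32851 windows (19.0%), and the full element in 1, against 3 of all (0.00913%). The 4 windows belonged to Sgk1 and Tsc22d3 only, and a gene with several starts gave several windows. The window with the full element is an Sgk1 promoter, shown with each half-site in capitals as the only member promoter that carried the whole palindrome.
Sgk1, chr10:21993640-21993939, plus strand, GRCm38.p6: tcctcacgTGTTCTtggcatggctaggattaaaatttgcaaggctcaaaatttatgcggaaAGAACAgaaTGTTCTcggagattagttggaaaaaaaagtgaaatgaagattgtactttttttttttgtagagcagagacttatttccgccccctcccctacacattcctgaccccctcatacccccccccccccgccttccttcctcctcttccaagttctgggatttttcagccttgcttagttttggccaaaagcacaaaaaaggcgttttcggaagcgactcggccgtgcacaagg

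A match is a description of these letters only. In NCBIM37 coordinates Fkbp5 spans chr17:28536040-28654469 on the minus strand, Tsc22d3 chrX:137074067-137135198 (minus), Zbtb16 chr9:48462416-48644050 (minus), Dusp1 chr17:26642535-26645464 (minus), Sgk1 chr10:21601990-21719709 (plus) and Hsd11b1 chr1:195047824-195090248 (minus). All are protein-coding. Hsd11b1 overlaps 2 non-coding genes on the opposite strand, and Fkbp5 overlaps a 7SK copy, so that reads from the partners cannot be told apart if counting ignored strand.

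Values are FPKM as deposited, which here are reads scaled by the length of the gene's longest transcript and by the library's reads on genes. Replicates 1 and 2 were deposited in 1 table (39452696 to 52893848 reads on genes) and replicate 3 in another (16392420 to 41675643 reads). The scaling rule was the same in both. Tests used replicates 1 and 2, and replicate 3 is the last of each 3 values given. The members had between 147 and 25954 reads per library, the fewest for Hsd11b1 in BAT. The third WAT day 8 EGCG library stood apart, with 61.0% of its reads on 5 genes against 3.64% to 10.5% elsewhere. All of its member values are low as deposited and are therefore also given after median-ratio scaling, which scales each library by the median ratio of its genes to the average library. WAT day 8 control replicate 1 also differed from its partners in these genes. Member results that rest on it are given without it, and for lists at most the median change is. Leaving out 1 library of a group with 2 tested leaves a lone library, whose spread was taken from the other groups. Calls and p-values from such a fit do not measure how firm a result is. The labels do not say whether replicates were separate isolations of cells, so the p-values measure the spread between these libraries. For each gene that spread was pooled over all 8 groups. Where the WAT day 8 controls varied widely, the SE is therefore larger also in comparisons that do not include them. A comparison that was not called is then no sign that the level stayed the same. In comparisons that do include the WAT day 8 controls, the SE is smaller than their own spread would give. Their p-values can therefore be too low. In such mixed cultures, fewer cells of a type and less RNA per cell cannot be told apart.

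**Figure D1:**
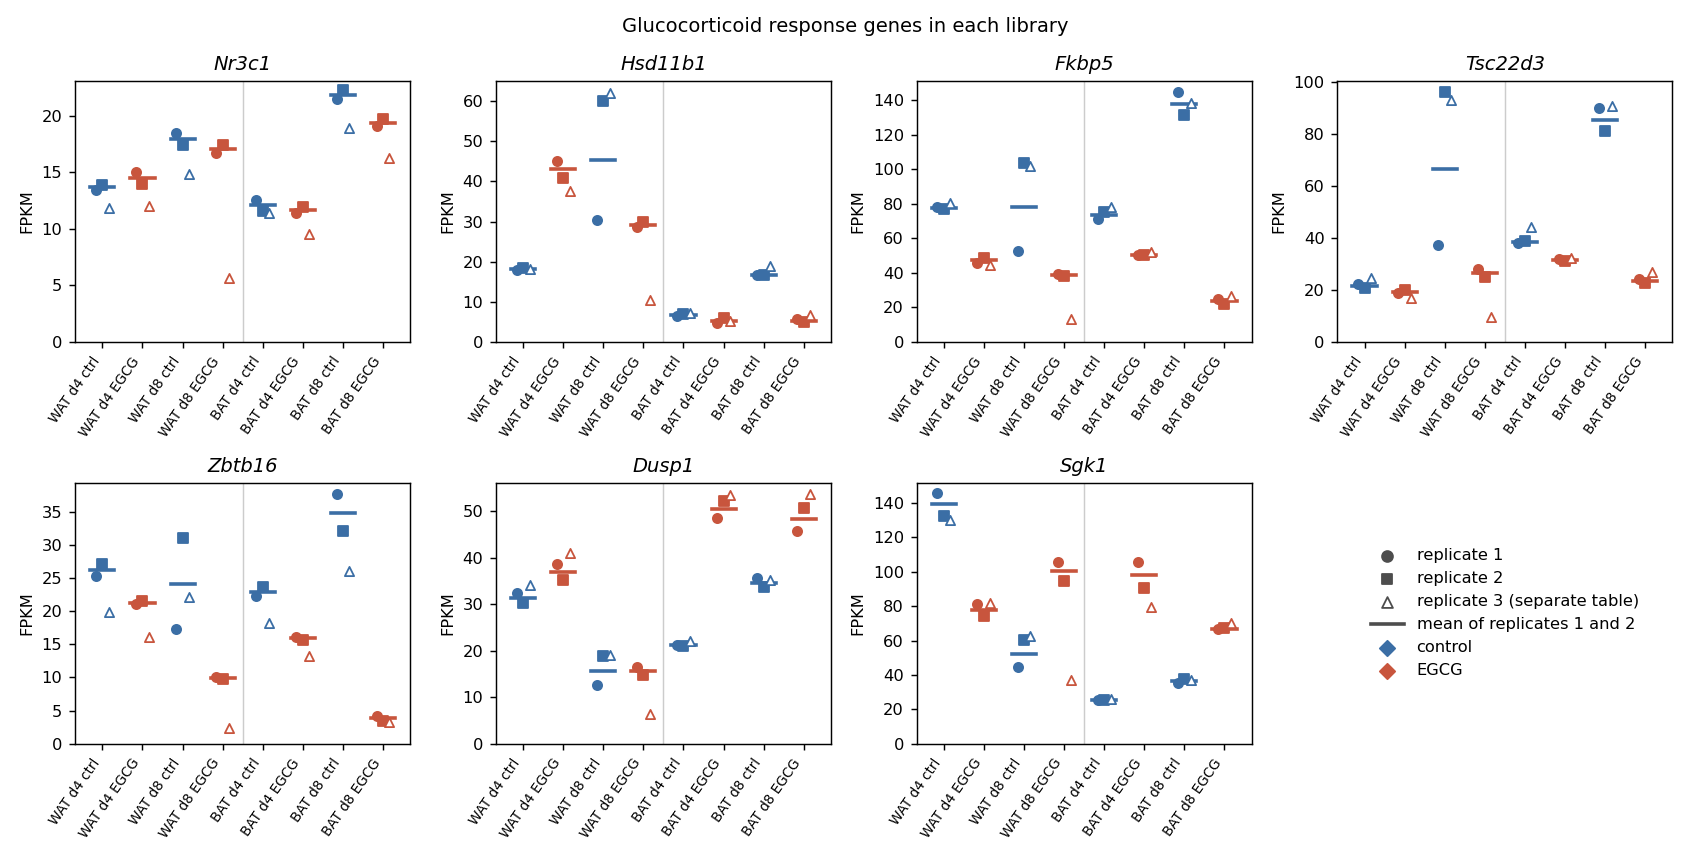
FPKM of each of the 7 genes (y axis, from 0) in every library, by group (x axis). Filled points are replicates 1 and 2 with their mean as a line, open triangles are replicate 3 of the other table, blue is control and red is EGCG. In BAT every gene stood higher in day 8 controls than in day 4 controls, and in WAT day 8 controls replicate 1 stood below both others in 6 of the 7 genes.

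The receptor gene was present in every group and rose moderately over time. Nr3c1 was at 13.4, 13.9 and 11.8 FPKM in WAT day 4 controls and at 18.5, 17.4 and 14.8 in WAT day 8 controls. In BAT it was at 12.6, 11.6 and 11.4 on day 4 and at 21.5, 22.2 and 18.9 on day 8. The day 8 controls were above the day 4 controls in both depots without overlap. On the log2(FPKM + 1) scale the rise was 0.37 ± 0.05 (SE, adjusted p = 0.000103) in WAT and 0.80 ± 0.05 (adjusted p = 1e-07) in BAT, and the rise in BAT was larger by 0.43 (adjusted p = 0.00108). With EGCG it was at 15.0, 14.0 and 12.1 on day 4 and at 16.7, 17.4 and 5.69 (13.8 after scaling) on day 8 in WAT, a rise of 0.22 (adjusted p = 0.00406). BAT EGCG cultures went from 11.4, 11.9 and 9.50 to 19.1, 19.7 and 16.3, a rise of 0.69 (adjusted p = 6.98e-07). The group means ordered from 21.8 ± 0.548 FPKM (SD, n = 2) in BAT day 8 controls down to 11.6 ± 0.406 in BAT day 4 EGCG cultures, and the day 8 groups stood above the day 4 groups in both depots. Over replicates 1 and 2, neighbours in this order overlapped between WAT day 8 control and EGCG and between BAT day 4 control and EGCG.

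Hsd11b1, the gene of the reactivating enzyme, was higher in WAT than in BAT and rose with time in the controls of both depots. It was at 17.8, 18.4 and 18.2 FPKM in WAT day 4 controls and at 30.5, 60.0 and 62.2 in WAT day 8 controls. BAT controls held 6.38, 6.85 and 7.22 on day 4 and 16.7, 16.6 and 18.8 on day 8. The rise was 1.20 ± 0.22 in WAT (adjusted p = 0.000525) and 1.21 ± 0.22 in BAT (adjusted p = 0.000378). In WAT it was 1.68 without day 8 replicate 1 and 0.72 without replicate 2. With EGCG, WAT cultures held 45.1, 40.9 and 37.7 on day 4, above all controls of that day, and 28.6, 29.8 and 10.5 (25.5 after median-ratio scaling) on day 8, a change of -0.54 that missed the threshold (adjusted p = 0.051). Day 4 EGCG was therefore higher than control by 1.20 ± 0.22 (adjusted p = 0.000678). The day 8 difference of -0.54 ± 0.22 (adjusted p = 0.0494) rested on 1 control library, being -0.06 (adjusted p = 0.675) without replicate 2 and -1.01 (adjusted p = 1.52e-05) without replicate 1, and it lost its call without either EGCG library (-0.51 and -0.57), with a smaller pseudocount and without the filter. BAT EGCG cultures stayed low on both days, at 4.59, 5.97 and 5.12 on day 4 and at 5.61, 5.03 and 6.59 on day 8, and on day 8 they were lower than controls by -1.48 ± 0.22 (adjusted p = 6.43e-05). BAT was below WAT in each of the 4 matched pairs of groups, by -1.31 to -2.82. H6pd, whose product supplies the cofactor of this enzyme, was at 85.8 ± 4.76 FPKM in WAT day 4 controls and 120 ± 12.4 on day 8 (log2 change 0.48, adjusted p = 5.59e-05), and at 98.7 ± 3.82 and 118 ± 5.09 in BAT (0.25, adjusted p = 0.0043). Of the 8 listed genes of steroid supply and removal 4 were tested. Of these 1 rose and 1 fell from day 4 to day 8 in WAT controls (27.7% and 33.2% of all genes). The median change of the 4 there was -0.06, or 0.13 without day 8 replicate 1, which was left out after the values had been seen. In BAT controls 1 rose and 2 fell (28.7% and 40.4%).

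The comparison of day 8 with day 4 asked whether the target genes stood lower once dexamethasone had been withdrawn. In BAT control cultures they did not: Fkbp5, Tsc22d3, Zbtb16, Dusp1 and Sgk1 all stood higher on day 8. In WAT control cultures Tsc22d3 rose, Dusp1 and Sgk1 fell, and Fkbp5 and Zbtb16 did not pass the test. With EGCG, Fkbp5, Zbtb16 and Sgk1 fell in BAT, while in WAT Zbtb16 and Dusp1 fell and Sgk1 rose. Over all 7 members, 7 were higher in BAT controls (28.7% of all tested genes were higher and 40.4% lower, 69.2% together). In WAT controls 3 were higher and 2 lower (27.7% and 33.2% of all genes, 61.0% together). In WAT EGCG cultures 2 were higher and 2 lower (31.8% and 27.7%, 59.5% together), and in BAT EGCG cultures 1 was higher and 3 lower (29.7% and 28.2%, 58.0% together). In WAT controls the changes of Fkbp5 and Zbtb16 were positive without day 8 replicate 1 and negative without day 8 replicate 2, as given below. The median change over the members was 0.80 in BAT controls and -0.07 in WAT controls, against -0.10 and -0.03 over all tested genes. Outside BAT controls, the members were called about as often as genes in general. Of the genes called in BAT controls 41.5% were higher, a share that median-ratio scaling moved to 53.3%.

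**Figure D2:**
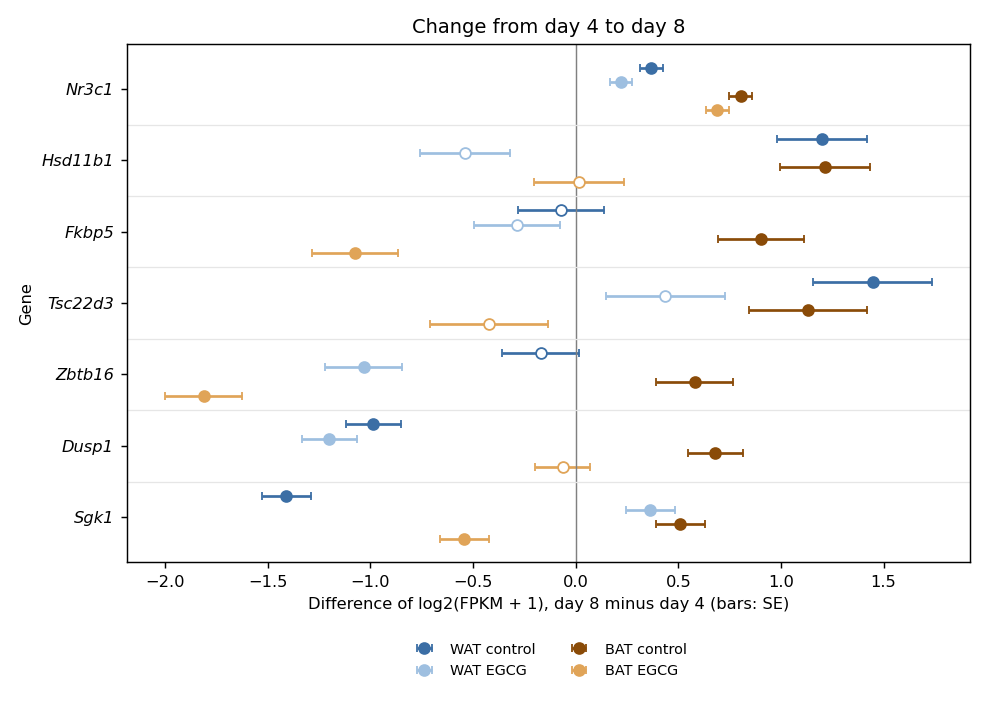
Difference of log2(FPKM + 1), day 8 minus day 4 (x axis), for each gene (y axis), with bars for the SE and filled points where the adjusted p was under 0.05. BAT controls (dark brown) lie right of 0 for all 7 genes, and BAT EGCG cultures (light brown) lie left of BAT controls for each of them.

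Fkbp5 encodes FKBP51, a co-chaperone that lowers the hormone affinity of the receptor. In BAT controls it was at 71.5, 75.5 and 78.1 FPKM on day 4 and at 145, 132 and 139 on day 8. Every day 8 library was above every day 4 library, and the change was 0.90 ± 0.21 (adjusted p = 0.00231). In WAT controls it was at 78.1, 77.2 and 80.7 on day 4 and at 52.7, 103 and 102 on day 8. Replicate 1 of day 8 was below all day 4 libraries and both others were above them. The fitted change of -0.07 ± 0.21 (adjusted p = 0.79, interval -0.53 to 0.39) became 0.41 (adjusted p = 0.000515) without replicate 1 and -0.55 (adjusted p = 6.47e-05) without replicate 2, so that 1 library set its sign, and the third library alone gave 0.37. EGCG cultures of WAT held 45.9, 48.4 and 44.8 on day 4 and 39.2, 37.9 and 13.2 (32.0 after scaling) on day 8, a change of -0.28 ± 0.21 (adjusted p = 0.266). In BAT with EGCG the level went from 50.5, 50.4 and 51.8 to 24.8, 22.2 and 26.4, a fall of -1.07 ± 0.21 (adjusted p = 0.000924).

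Tsc22d3 encodes GILZ, a leucine zipper protein that carries anti-inflammatory actions of glucocorticoids. BAT controls held 37.9, 39.0 and 44.4 FPKM on day 4 and 89.9, 81.2 and 90.8 on day 8. The groups did not overlap, and the rise was 1.13 ± 0.29 (adjusted p = 0.00426). WAT controls went from 22.2, 20.6 and 24.6 to 37.4, 96.2 and 93.3, a rise of 1.45 ± 0.29 (adjusted p = 0.00101). It was 2.12 without day 8 replicate 1 and 0.78 without replicate 2. With EGCG it was at 18.8, 19.8 and 16.9 on day 4 and at 28.3, 24.8 and 9.51 (23.1 after scaling) on day 8 in WAT, where the change of 0.44 ± 0.29 was not called (adjusted p = 0.215). In BAT with EGCG it was at 32.1, 31.2 and 32.5 and then at 24.1, 22.6 and 26.8, and the change of -0.42 ± 0.29 was not called either (adjusted p = 0.235). These BAT libraries did not overlap between the days, and the pooled SE of 0.29 also holds the spread of the WAT day 8 controls.

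Zbtb16 encodes PLZF, a zinc finger repressor. In BAT controls it was at 22.4, 23.6 and 18.2 FPKM on day 4 and at 37.7, 32.2 and 26.1 on day 8, a rise of 0.58 ± 0.19 (adjusted p = 0.0162) that was not called without day 4 replicate 1 (0.54, adjusted p = 0.0719) or day 8 replicate 1 (0.47, adjusted p = 0.105). WAT controls were at 25.4, 27.2 and 20.0 and then at 17.3, 31.1 and 22.3, with groups that overlapped (-0.17 ± 0.19, adjusted p = 0.457). As with Fkbp5, the sign turned with the library: 0.24 (adjusted p = 0.0634) without day 8 replicate 1 and -0.58 (adjusted p = 0.00053) without replicate 2. EGCG cultures of both depots fell, and the fall in BAT was the steepest of any member between the days. WAT went from 21.1, 21.5 and 16.2 to 10.1, 9.73 and 2.29 (5.57 after scaling), a fall of -1.03 ± 0.19 (adjusted p = 0.00055). BAT went from 16.1, 15.7 and 13.3 to 4.20, 3.46 and 3.21, a fall of -1.81 ± 0.19 (adjusted p = 6.79e-06).

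Dusp1 and Sgk1 are immediate responders that other signals induce as well: Dusp1 encodes a phosphatase that switches off MAP kinases, and Sgk1 a serum- and glucocorticoid-regulated kinase. Both moved in opposite directions in the controls of WAT and BAT. Dusp1 fell in WAT controls from 32.5, 30.3 and 34.0 FPKM to 12.5, 18.7 and 19.0 (-0.99 ± 0.13, adjusted p = 5.28e-05). In BAT controls it rose from 21.3, 21.1 and 22.0 to 35.5, 33.6 and 35.2 (0.68 ± 0.13, adjusted p = 0.000721). Neither pair of groups overlapped, and the difference between the depots' changes was 1.67 ± 0.19 (adjusted p = 6.2e-05). Sgk1 was highest of all groups in WAT day 4 controls, at 146, 133 and 130.2, and fell to 44.5, 60.2 and 62.7 on day 8 (-1.41 ± 0.12, adjusted p = 1.1e-06). BAT controls held 25.6, 25.1 and 26.1 on day 4 and 35.3, 37.7 and 36.8 on day 8 (0.51 ± 0.12, adjusted p = 0.00237). For Sgk1 the depots' changes differed by 1.92 ± 0.17 (adjusted p = 1.13e-05).

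With EGCG, Dusp1 fell in WAT from 38.6, 35.3 and 40.9 to 16.4, 14.7 and 6.45 (15.7 after scaling), by -1.20 ± 0.13 (adjusted p = 1.2e-05). In BAT it was at 48.6, 52.2 and 53.5 on day 4 and at 45.7, 50.7 and 53.7 on day 8, with overlapping groups (-0.06 ± 0.13, adjusted p = 0.715). Sgk1 went the other way from its controls in both depots. It rose in WAT EGCG cultures from 81.3, 74.2 and 82.0 to 106, 94.8 and 37.2 (90.4 after scaling), by 0.36 ± 0.12 (adjusted p = 0.0202). In BAT EGCG cultures it fell from 106, 90.4 and 79.5 to 66.5, 67.3 and 70.0, by -0.54 ± 0.12 (adjusted p = 0.00204). The rise in WAT lost its call without day 4 EGCG replicate 2 (0.30, adjusted p = 0.118) or day 8 EGCG replicate 1 (0.28, adjusted p = 0.131), with quantile normalization (0.25, adjusted p = 0.0664) and without the filter (adjusted p = 0.0514).

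The difference between the day changes was then tested directly. Control changes in BAT exceeded those in WAT for 5 members (14.8% of all genes were higher and 25.1% lower in this test, 40.0% together), with values of 0.97 for Fkbp5 (adjusted p = 0.022) and 0.75 for Zbtb16 (adjusted p = 0.0423) beside those of Nr3c1, Dusp1 and Sgk1 above. Both values moved with WAT day 8 controls, being 0.49 (adjusted p = 0.00192) and 0.34 (adjusted p = 0.0566) without replicate 1 and 1.45 and 1.16 without replicate 2. The call for Fkbp5 was also lost without the filter and without any 1 of 4 other control libraries (0.91 to 0.98, adjusted p = 0.0513 to 0.0675), and that for Zbtb16 without the filter and without any 1 of 5 others (0.64 to 0.80, adjusted p = 0.0724 to 0.13). Tsc22d3 did not pass (-0.32, adjusted p = 0.574) and Hsd11b1 did not (0.01, adjusted p = 0.976), and for both the WAT day 8 control library decided the result. Without replicate 1 they were -0.99 (adjusted p = 7.14e-05) and -0.46 (adjusted p = 0.0267), and without replicate 2 they were 0.35 (adjusted p = 0.0239) and 0.49 (adjusted p = 0.0194). In BAT the day change was lower with EGCG than in controls for 6 members (34.7% of all genes were higher and 20.6% lower, 55.4% together), by -2.39 for Zbtb16 (adjusted p = 1.71e-05), -1.98 for Fkbp5 (adjusted p = 0.000163), -1.55 for Tsc22d3, -1.20 for Hsd11b1, -1.05 for Sgk1 and -0.74 for Dusp1. Nr3c1 did not pass as deposited, at -0.11 (adjusted p = 0.235), but was called at -0.26 (adjusted p = 0.0142) after median-ratio scaling and at -0.21 (adjusted p = 0.0359) after quantile normalization. In WAT, Hsd11b1 (-1.74, adjusted p = 0.000747) and Zbtb16 (-0.86, adjusted p = 0.0187) had a lower change and Sgk1 a higher one (1.77, adjusted p = 8.77e-06) with EGCG (29.7% of all genes were higher and 19.7% lower, 49.4% together), and 6 members were called without control replicate 1 of day 8 and 5 without replicate 2. Without these libraries in turn Hsd11b1 was -2.22 and -1.26. Zbtb16 was -1.27 and -0.46, and its call was lost without the filter (adjusted p = 0.051), without day 4 control replicate 1 (adjusted p = 0.0558) or without day 8 EGCG replicate 2 (adjusted p = 0.051). These tests share the control libraries with the comparisons that follow.

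EGCG was next set against control on the same day. On day 8 in BAT, 5 members were lower and 2 higher with EGCG (26.1% and 46.5% of all genes, 72.6% called). Zbtb16 was lowest, with a mean of 3.83 ± 0.526 FPKM against 35.0 ± 3.88 (-2.90 ± 0.19, adjusted p = 4.99e-08). Fkbp5 followed, at 23.5 ± 1.87 against 138 ± 9.13 (-2.51 ± 0.21, adjusted p = 4.55e-07), then Tsc22d3, at 23.4 ± 1.08 against 85.5 ± 6.21 (-1.83 ± 0.29, adjusted p = 0.000115). No EGCG library of these 3 genes reached the lowest control. Nr3c1 was lower by -0.16 ± 0.05 (adjusted p = 0.0168), a call lost without control replicate 2 (-0.14, adjusted p = 0.093) or EGCG replicate 1 (-0.14, adjusted p = 0.0914). Sgk1, at 66.9 ± 0.565 against 36.5 ± 1.71, was higher (0.85 ± 0.12, adjusted p = 3.93e-05), and so was Dusp1 (0.47 ± 0.13, adjusted p = 0.00757), though its call was lost after median-ratio scaling (0.28, adjusted p = 0.0834) and without EGCG replicate 2 (0.40, adjusted p = 0.0581). Of all genes called, 64.0% were higher with EGCG, or 51.8% after median-ratio scaling.

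**Figure D3:**
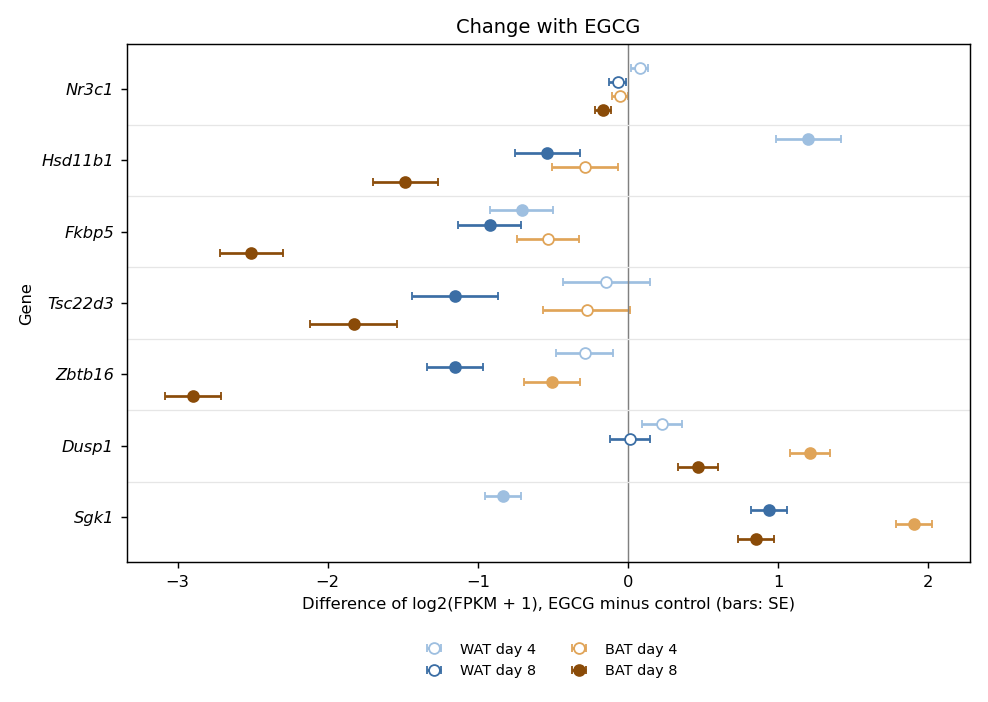
Difference of log2(FPKM + 1), EGCG minus control (x axis), for each gene (y axis), with bars for the SE and filled points where the adjusted p was under 0.05. On BAT day 8 (dark brown) Fkbp5, Tsc22d3 and Zbtb16 lie furthest left, and Sgk1 on day 4 lies left of 0 in WAT and right of 0 in BAT.

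On day 8 in WAT, 4 members were lower and 1 higher with EGCG (18.9% and 44.7% of all genes, 63.6% called). Zbtb16 was lower by -1.15 ± 0.19 (adjusted p = 0.000208), Tsc22d3 by -1.15 ± 0.29 (adjusted p = 0.0042) and Fkbp5 by -0.92 ± 0.21 (adjusted p = 0.00225). All 3 EGCG libraries were below all 3 controls for each of these genes. In the order Zbtb16, Tsc22d3 and Fkbp5 the differences were -1.56, -1.82 and -1.40 without control replicate 1 and -0.74, -0.48 and -0.44 without replicate 2. Sgk1 was higher by 0.94 ± 0.12 (adjusted p = 2.72e-05). Dusp1 (0.01, adjusted p = 0.933) and Nr3c1 (-0.07, adjusted p = 0.293) did not pass as deposited. Nr3c1 was called at -0.26 (adjusted p = 0.00143) after median-ratio scaling and at -0.24 (adjusted p = 0.00212) after quantile normalization, and Dusp1 was -0.26 (adjusted p = 0.0221) without control replicate 1 and 0.29 (adjusted p = 0.0139) without replicate 2. Of all genes called, 70.3% were higher with EGCG, or 51.3% after median-ratio scaling.

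By day 4, while dexamethasone was still in the medium, fewer members differed. In WAT, Hsd11b1 was higher and Fkbp5 and Sgk1 lower (34.4% of all genes were higher and 19.3% lower, 53.7% called). Fkbp5 was lower by -0.71 ± 0.21 (adjusted p = 0.0138) with all 3 EGCG libraries below the controls, a call that was lost without either control or without EGCG replicate 1 (-0.67 to -0.72, adjusted p = 0.0508 to 0.0659). In BAT, Dusp1 and Sgk1 were higher and Zbtb16 lower (27.9% and 20.6%, 48.5% called). Sgk1 showed the largest difference of the members, 98.2 ± 11.0 against 25.3 ± 0.387 FPKM (1.91 ± 0.12, adjusted p = 1.67e-07), and Dusp1 was at 50.4 ± 2.53 against 21.2 ± 0.149 (1.21 ± 0.13, adjusted p = 1.55e-05). Zbtb16 was lower by -0.50 ± 0.19 (adjusted p = 0.044), a call that was lost when any 1 of the 4 libraries was left out (-0.47 to -0.54, adjusted p = 0.0978 to 0.154), and Fkbp5 by -0.53 ± 0.21 missed the threshold (adjusted p = 0.0548) although its groups did not overlap. Of all genes called in WAT 64.1% were higher with EGCG, or 44.7% after median-ratio scaling and 52.5% after quantile normalization.

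Whether EGCG acted differently in the depots was tested in comparisons added after the values had been seen. On day 4 (12.0% of all genes were higher and 16.1% lower, 28.1% together), Sgk1 was lower with EGCG in WAT (-0.83 ± 0.12, adjusted p = 0.000118) and higher in BAT, a difference of 2.74 ± 0.17 (adjusted p = 1.32e-06). Dusp1 differed in the same direction (0.98, adjusted p = 0.0029) and Hsd11b1 in the other (-1.49, adjusted p = 0.00447). On day 8 (19.4% were higher and 19.7% lower, 39.2% together), Zbtb16 was lowered more in BAT, by -1.75 (adjusted p = 0.000364), and so were Fkbp5, by -1.59 (adjusted p = 0.00142), and Hsd11b1, by -0.95 (adjusted p = 0.0305). Without WAT day 8 control replicate 1 these 3 were -1.34, -1.11 and -0.47, and without replicate 2 they were -2.15, -2.07 and -1.42. The call for Hsd11b1 was lost without the filter (adjusted p = 0.0778) and without any 1 of the other 6 libraries (-0.88 to -1.01, adjusted p = 0.0538 to 0.0883), and replicate 3 gave -0.20.

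Between the depots, Sgk1 on day 4 was the member that differed most in controls, with a BAT minus WAT difference of -2.41 ± 0.12 (adjusted p = 8.04e-08). In day 4 controls 4 members were lower and 1 higher in BAT (14.4% and 41.4% of all genes, 55.8% called). The higher one was Tsc22d3 (0.82 ± 0.29, adjusted p = 0.0311), a call lost when any 1 of the 4 libraries was left out (0.76 to 0.87, adjusted p = 0.077 to 0.118) and with either other scaling, and Fkbp5 (-0.08, interval -0.54 to 0.38) and Zbtb16 (-0.18) did not pass. In day 8 controls 4 were higher and 2 lower in BAT (31.6% and 22.0%, 53.6% called): Fkbp5 by 0.89 ± 0.21 (adjusted p = 0.0036), Zbtb16 by 0.57 ± 0.19 (adjusted p = 0.024), Dusp1 by 1.12 ± 0.13 and Nr3c1 by 0.27 ± 0.05. Without WAT day 8 control replicate 1 the difference for Fkbp5 was 0.41 (adjusted p = 0.000713) and that for Zbtb16 0.16 (adjusted p = 0.213), and without replicate 2 they were 1.37 and 0.97. Zbtb16 also lost its call without BAT replicate 1, without the filter and with quantile normalization. Tsc22d3 did not pass (0.50, adjusted p = 0.167), with -0.17 without that library and 1.17 without replicate 2. In day 4 controls 74.3% of the genes called were higher in BAT, or 51.6% after median-ratio scaling and 54.4% after quantile normalization. Under EGCG 2 members were higher and 2 lower in BAT on day 4 (32.9% and 15.8%, 48.7% called), and 2 were higher and 4 lower on day 8 (24.4% and 14.0%, 38.4% called), Fkbp5 (-0.69, adjusted p = 0.0216) and Zbtb16 (-1.18, adjusted p = 0.0005) among the latter. The Fkbp5 call was lost without the filter (adjusted p = 0.0585) and without any 1 of the 4 libraries (-0.62 to -0.77, adjusted p = 0.0536 to 0.115). Calls for Nr3c1 on day 8 and for Dusp1 and Sgk1 on day 4 under EGCG, and for Nr3c1 in day 4 controls, were also lost when 1 of several libraries was left out. For Sgk1 on day 4 under EGCG the difference was 0.33, whereas replicate 3 gave -0.16 after median-ratio scaling.

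Ordered by the mean of replicates 1 and 2, each target had its own sequence of groups. Fkbp5 was highest in BAT day 8 controls (138 ± 9.13 FPKM, SD, n = 2), followed by the other 3 control groups (73.5 to 78.1), BAT and WAT day 4 EGCG (50.5 and 47.2), WAT day 8 EGCG (38.6) and BAT day 8 EGCG (23.5), and of these neighbours only the WAT control groups of day 8 and day 4 overlapped. Tsc22d3 ran from 85.5 in BAT day 8 controls to 19.3 in WAT day 4 EGCG cultures, and WAT day 8 controls, which spanned 37.4 to 96.2, overlapped both of their neighbours, BAT day 8 and BAT day 4 controls, which did not overlap each other. Zbtb16 ran from 35.0 in BAT day 8 controls to 3.83 in BAT day 8 EGCG cultures, and of the other 3 control groups (means 23.0 to 26.3) WAT day 8 overlapped both day 4 groups, which did not overlap each other. Dusp1 was highest in the BAT EGCG groups (50.4 and 48.2, overlapping) and lowest in the day 8 WAT groups (15.6 and 15.5, overlapping), with WAT day 4 EGCG and BAT day 8 controls also overlapping in between. Sgk1 ran from 139 in WAT day 4 controls to 25.3 in BAT day 4 controls, and the groups next below the highest, WAT day 8 EGCG and BAT day 4 EGCG, overlapped.

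WAT day 8 control replicate 1 stood below replicates 2 and 3 in the target genes. That Fkbp5 varies between these libraries was known beforehand, so the values describe the spread and do not test it. The percentages compare replicate 1 with replicate 2 only. For Zbtb16 replicate 2 also stood apart, at 1.4 of the median against 0.776 for replicate 1. The level of replicate 1 over that of replicate 2 was -1.34 on the log2 scale for Tsc22d3, and 0.163% of all tested genes were as low. The same difference was -0.96 for Fkbp5 (0.568% of genes), -0.95 for Hsd11b1 (0.596%), -0.81 for Zbtb16 (0.958%), -0.55 for Dusp1 (2.38%) and -0.43 for Sgk1 (3.90%). Nr3c1 was at 0.08. In the other 7 groups 2 to 4 of the 7 members were lower in replicate 1. In this library 20 of 23 other glucocorticoid-induced genes were lower than in replicate 2 (median -0.23), and all 9 tested glucocorticoid-repressed inflammatory genes were higher (median 0.68, summed level 648 FPKM against 370.5 and 434). Of 12 mature adipocyte markers 10 were lower (median -0.21), while their summed level was 6580 FPKM against 7475 and 6846. Also lower were 4 of 4 genes of steroid supply and removal and 4 of 5 thyroid hormone genes. Lower too were 6 of 7 macrophage, 4 of 5 endothelial and 2 of 2 mesothelial markers. Of 16 chaperones and cofactors 8 were lower, and of 10 cAMP genes 3. Of 6 preadipocyte markers 2 were lower, and of 4 skeletal muscle markers 0. In BAT day 4 controls all 12 adipocyte markers were also lower in replicate 1. In BAT day 8 controls 8 of 9 repressed genes were. Over all genes 48.3% were lower in replicate 1, and replicates 1 and 2 of this group differed by an SD of 0.23 on the log2 scale against 0.117 to 0.144 in the other groups. The labels give nothing that sets this library apart, and the part of these markers in the result was not tested.

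**Figure D4:**
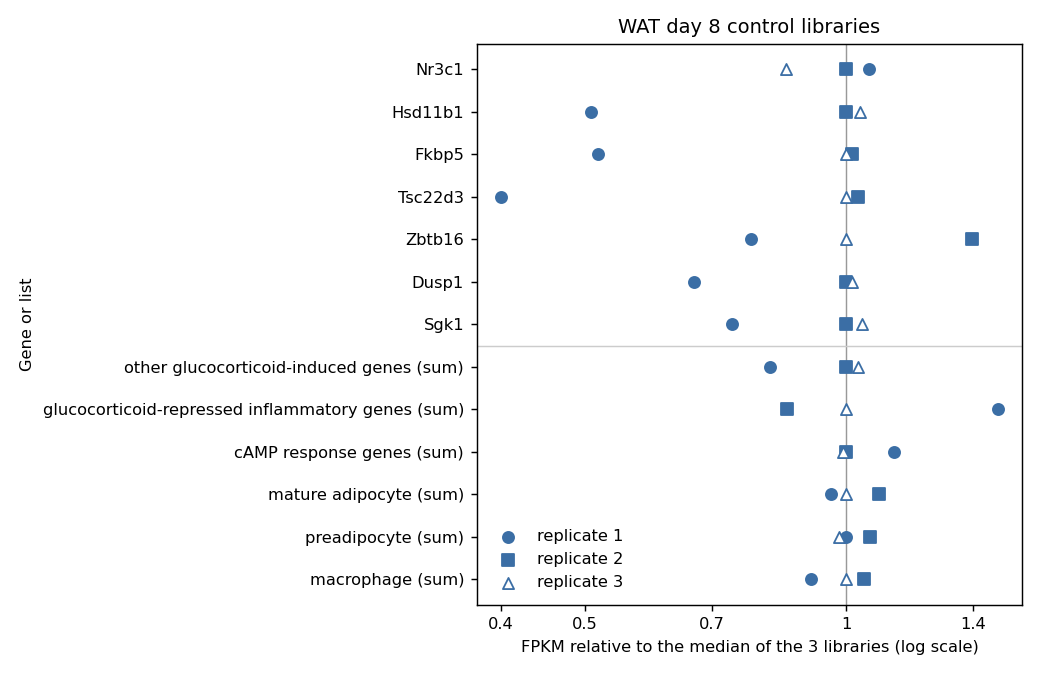
Level of each gene or summed level of each list (y axis) in the 3 WAT day 8 control libraries, relative to their median (x axis, log scale). Replicate 1 (circles) lies at 0.401 for Tsc22d3, 0.508 for Hsd11b1 and 0.517 for Fkbp5, at 0.961 for the mature adipocyte sum and at 1.49 for the glucocorticoid-repressed sum.

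Other genes that glucocorticoids are known to induce were examined as a list of 24, of which 23 were tested. In BAT controls 17 rose and 4 fell from day 4 to day 8 (median 0.46, against 28.7% and 40.4% of all genes), with Angptl4, an inhibitor of lipoprotein lipase, going from 21.8 ± 0.293 to 119 ± 4.78 FPKM (2.39, adjusted p = 2.25e-09) and Pdk4, a kinase that shuts off pyruvate oxidation, from 13.8 ± 1.37 to 71.0 ± 1.91 (2.29, adjusted p = 1.42e-06). In WAT controls 9 rose and 6 fell (median 0.27, against 27.7% and 33.2%). The median was 0.32 without day 8 replicate 1, which was left out after the values had been seen. Leaving out replicate 2 was not tried for the lists. Among the genes that rose were Anxa1 (annexin A1, from 133 ± 4.01 to 292 ± 34.2, adjusted p = 1.18e-07) and Gpx3 (a secreted glutathione peroxidase, from 625 ± 14.1 to 1362 ± 153, adjusted p = 1.07e-07). With EGCG 3 rose and 17 fell in WAT (median -0.77, against 31.8% and 27.7%), and 2 rose and 20 fell in BAT (median -1.02, against 29.7% and 28.2%). Rgs2, a regulator of G protein signalling, fell from 29.3 ± 2.83 to 2.73 ± 0.0550 FPKM in WAT EGCG cultures (-3.02, adjusted p = 2.18e-10) and from 23.2 ± 1.04 to 1.46 ± 0.121 in BAT EGCG cultures (-3.30, adjusted p = 2.13e-10). All 23 genes had a lower day change with EGCG than in controls in BAT (20.6% of all genes). Set against control on day 8, 4 of the 23 were higher and 16 lower with EGCG in WAT (44.7% and 18.9% of all genes), and 1 was higher and 21 lower in BAT (46.5% and 26.1%). Lcn2 (lipocalin 2) was at 3.17 ± 0.675 FPKM against 125 ± 3.87 in BAT (-4.92, adjusted p = 2.44e-09), and Ppp1r3c, which targets a phosphatase to glycogen, at 0.206 ± 0.0136 against 34.0 ± 0.167 (-4.86, adjusted p = 7.02e-11). On day 4 the list split, with 11 higher and 9 lower with EGCG in WAT (34.4% and 19.3% of all genes). In BAT 9 were higher and 9 lower on that day (27.9% and 20.6%).

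**Figure D5:**
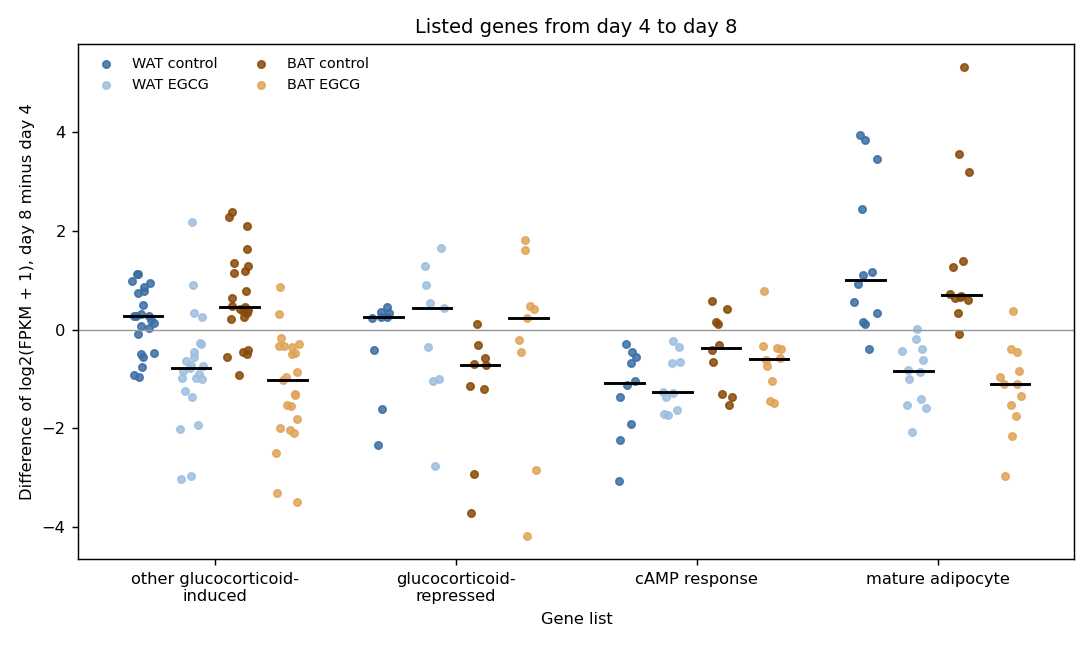
Difference of log2(FPKM + 1), day 8 minus day 4 (y axis), of each tested gene in 4 lists (x axis), by depot and treatment, with the median as a black line. The other glucocorticoid-induced genes have medians of 0.27 and 0.46 in WAT and BAT controls and of -0.77 and -1.02 with EGCG, and the cAMP response genes have medians below 0 in all 4 series.

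Inflammatory genes that glucocorticoids repress gave 9 tested genes of 12 listed. In BAT controls 7 fell and none rose by day 8 (40.4% and 28.7% of all genes), among them Mmp3, a matrix metalloproteinase, from 127 ± 15.9 to 8.70 ± 0.241 FPKM (-3.72, adjusted p = 2.07e-08), and the chemokine gene Cxcl1, from 18.2 ± 1.39 to 1.55 ± 0.335 (-2.92, adjusted p = 2.32e-07). WAT controls had 1 that rose and 2 that fell (27.7% and 33.2% of all genes). Their median change was -0.11 without day 8 replicate 1, again left out after the values had been seen. With EGCG 5 rose and 3 fell in WAT (31.8% and 27.7%), and 2 rose and 3 fell in BAT (29.7% and 28.2%). In BAT on day 8, 8 of the 9 were higher with EGCG and none was lower (46.5% and 26.1% of all genes), with Ptgs2 (cyclooxygenase 2) at 30.8 ± 1.73 against 1.03 ± 0.445 FPKM (3.98, adjusted p = 4.86e-08) and Ccl7 at 121 ± 8.26 against 10.7 ± 2.24 (3.40, adjusted p = 2.49e-07). In WAT on day 8, 5 were higher and none was lower (44.7% and 18.9% of all genes), or 4 and none after median-ratio scaling.

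Genes that answer cAMP were followed because IBMX left the medium with dexamethasone. All 10 tested fell from day 4 to day 8 in WAT controls (33.2% of all genes), and 9 fell in WAT EGCG cultures (27.7%). In BAT controls 6 fell and 2 rose (40.4% and 28.7% of all genes). In BAT EGCG cultures 8 fell and 1 rose (28.2% and 29.7%). Nr4a1, an orphan nuclear receptor, fell in WAT controls from 76.9 ± 0.805 to 9.11 ± 5.78 FPKM (-3.07, adjusted p = 1.74e-06), and Pde4b, a cAMP phosphodiesterase, fell in BAT controls from 13.8 ± 0.333 to 4.12 ± 0.245 (-1.53, adjusted p = 1.1e-08). Dusp1 and Sgk1 fell with this list in WAT controls and not in BAT controls, and the part of cAMP in their levels was not tested. Genes that answer thyroid hormone, the hormone added on day 4, had 4 of 5 tested higher on day 8 in the controls of each depot and none lower. Of all genes 27.7% rose in WAT controls and 28.7% in BAT controls. Thrsp, for example, rose from 103 ± 21.6 to 1076 ± 22.2 FPKM in BAT controls (3.38, adjusted p = 1.31e-06). With EGCG 3 rose and 1 fell in each depot (31.8% and 27.7% of all genes in WAT, 29.7% and 28.2% in BAT). Klf9 stands on this list and on that of glucocorticoid-induced genes.

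Of 16 chaperones and cofactors of the receptor, 1 rose, 11 fell and 4 did not pass by day 8 in WAT controls (27.7% of all genes rose and 33.2% fell). In BAT controls 0 rose, 10 fell and 6 did not pass (28.7% and 40.4%), or 3 rose and 7 fell after median-ratio scaling. Fkbp4, which encodes another co-chaperone of the receptor, fell from 39.0 ± 0.245 to 20.9 ± 2.09 FPKM in WAT (-0.87, adjusted p = 1.28e-07) and from 49.7 ± 0.648 to 27.1 ± 0.742 in BAT (-0.85, adjusted p = 7.71e-08). On day 8, 13 were higher and 2 lower with EGCG in WAT (44.7% and 18.9% of all genes) and 12 and 2 in BAT (46.5% and 26.1%). After median-ratio scaling these counts were 7 and 2 in WAT and 9 and 4 in BAT. Hsp90aa1, the main chaperone of the receptor, was at 192 ± 3.71 against 93.9 ± 7.23 in BAT (1.03, adjusted p = 6.02e-09) and at 171 ± 2.06 against 87.7 ± 1.35 in WAT (0.95, adjusted p = 2.89e-08).

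Markers of other cell states moved with these comparisons, and the shares over all tested genes are given first. By day 8, 27.7% rose and 33.2% fell in WAT controls, and 28.7% and 40.4% in BAT controls. With EGCG on day 4, 34.4% were higher and 19.3% lower in WAT, and 27.9% and 20.6% in BAT. With EGCG on day 8 the shares were 44.7% and 18.9% in WAT, and 46.5% and 26.1% in BAT. Of 12 mature adipocyte markers, 9 rose and 1 fell from day 4 to day 8 in WAT controls and 11 rose and none fell in BAT controls, with summed levels of 3819 to 4526 and then 6580 to 7475 FPKM in WAT. With EGCG all 12 were lower than in controls in both depots on both days (medians -2.18 to -4.76), and Adipoq was at a median of 2.34 FPKM in WAT day 8 EGCG cultures against 214 in controls. Preadipocyte markers (6 tested of 7) had 4 higher and 1 lower on day 8 in WAT controls and 3 of each in BAT controls. Macrophage markers, 7 tested of 8, summed to 69.3 to 74.2 FPKM in WAT day 4 controls and 104 to 120 in WAT day 8 controls, and to 157 to 177 and 106 to 116 in BAT. All 7 rose in WAT controls, against 1 that rose and 1 that fell in BAT controls, and with EGCG on day 4, 6 were higher and none lower in WAT and 4 and none in BAT. On day 8 with EGCG, 7 were lower in WAT and 6 in BAT, and none was higher. Outside the third WAT day 8 EGCG library, endothelial markers summed to 11.1 to 38.8 FPKM, skeletal muscle markers to 10.4 to 74.0 and mesothelial markers to 0.568 to 30.7 in a library, with Upk3b at a median of 0 in every group. Of 6 skeletal muscle markers 4 were tested, and of these 4 rose in BAT controls and 3 fell in WAT controls from day 4 to day 8, the directions of Dusp1 and Sgk1, and 4 were higher with EGCG in WAT on day 4. Of 6 endothelial markers 5 were tested, and of these 5 were higher with EGCG in BAT and 4 in WAT on each day, or 3 in BAT on day 8 after median-ratio scaling. Both tested mesothelial markers were higher with EGCG in each depot on each day, or neither in BAT on day 8 after that scaling. The part of these cells in the members' changes was not tested.

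The genes whose pattern was most like that of 3 members were found by Pearson's r of log2(FPKM + 1) over the 16 libraries of replicates 1 and 2, among 8703 genes with a mean FPKM of at least 5. These libraries share their depots, days and treatments, so that r describes a shared pattern over 8 groups only. For Fkbp5 they were Slc1a5 (r = 0.964) and Glul (0.963), followed by D230025D16Rik, Ndrg2 and Zhx3 (0.948), with 0.974 and 0.996 for the first and second over the 8 libraries of replicate 3. Tsc22d3 was most like Acly (0.947), Slc25a1 (0.941) and G6pdx (0.932), which encode enzymes and a carrier that feed fatty acid synthesis, and then Stim1 and Ahcyl1. Zbtb16 was most like Dpep1 (0.950), Cdk5rap3, Ccnl2, Scara5 and Klf15 (0.935), the last of which encodes a transcription factor that glucocorticoids induce and stands on the list above.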

How the data were processed

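Total RNA of 24 cultures had been sequenced. Per the submitters' processing notes FastQC 0.11.9, HISAT2 2.2.0, HTSeq 0.11 and the build mm9 were used; the strand setting is not given in the sources used here. The authors deposited FPKM values in 2 tables, in both of which each library was scaled by its own reads. Gene lengths equal the longest GENCODE vM1 transcript for all 37310 genes. Multiplying FPKM by length gave whole reads for 100% of values in every library at a tolerance of 0.01, from which depth was taken. Groups came from the labels. Genes with an FPKM of at least 1 in at least 2 of 16 libraries (14095) were tested on log2(FPKM + 1), which understates changes of low genes, with limma 3.58.1 in R 4.3.3 (1 mean per group, trend, 8 residual degrees of freedom, two-sided). P-values were adjusted by Benjamini-Hochberg within each comparison and called under 0.05; intervals are 95%. Replicate 3 gave values only. In a test on simulated data for the WAT control day comparison (14095 genes), 88.5% of 200 genes changed 2-fold and 13 unchanged genes were called. The simulation gave every group the same spread. In the data 61.0% of genes were called in this comparison and the WAT day 8 controls varied more than other groups. The simulated rates therefore do not carry over to it. Of 128 listed symbols 127 were matched, 1 by a synonym. Named genes of a list are the 2 called members with the largest change and a mean FPKM of at least 5 in the higher group. Members and lists were chosen with earlier results of these data known. Replicates 1 and 2 differed by more than sampling noise (1.62 to 3.90 against 0.455). Alternatives were another pseudocount, no filter, 2 scalings, a replicate block, both tables together and leaving out each library. Motifs were searched in Python 3.11.15.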

Additional observations from a re-analysis of the deposited data

Results flagged for a closer look

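Differences between groups in the size of a change passed their own test for the members as follows, all as log2(FPKM + 1) differences by limma with adjusted p-values given where the comparison was described. The day change of controls was larger in BAT than in WAT for Sgk1 (1.92), Dusp1 (1.67), Fkbp5 (0.97), Zbtb16 (0.75) and Nr3c1 (0.43). The day change was lower with EGCG than in controls in BAT for Zbtb16 (-2.39), Fkbp5 (-1.98), Tsc22d3 (-1.55, adjusted p = 0.00694), Hsd11b1 (-1.20, adjusted p = 0.00623), Sgk1 (-1.05, adjusted p = 0.000258) and Dusp1 (-0.74, adjusted p = 0.0057). In WAT it was lower for Hsd11b1 (-1.74) and Zbtb16 (-0.86) and higher for Sgk1 (1.77).

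The effect of EGCG differed between depots on day 4 for Sgk1 (BAT minus WAT 2.74), Dusp1 (0.98) and Hsd11b1 (-1.49). On day 8 it differed for Zbtb16 (-1.75) and Fkbp5 (-1.59), and for Hsd11b1 (-0.95) only while the filter was applied and none of 6 of the 8 libraries was left out. For Sgk1 the third libraries, which were not part of the test, gave 2.25 on day 4, and for Fkbp5 and Zbtb16 they gave -0.80 and -0.92 on day 8. For Hsd11b1 they gave -1.41 on day 4 and -0.20 on day 8. The larger control day change in BAT of Fkbp5 and Zbtb16 and the lower WAT day change of Zbtb16 with EGCG also lost their calls when 1 of several libraries was left out.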

How the results depend on the processing

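Across 119 member results, 1284 of 1449 recomputed values kept their sign and their side of the threshold, 82 lost their call, 51 gained one and 32 changed sign. All 207 recomputed counts over all genes stayed within 1.5 times the reported one. With the table of replicate 3 added to the fit (median-ratio scaling, a term for the table), WAT control Fkbp5 turned from -0.07 to 0.10, Nr3c1 in WAT day 4 EGCG against control to -0.06, Dusp1 in WAT day 8 EGCG against control to -0.26, the depot difference of the control day change of Hsd11b1 to -0.06 and that of the day 8 EGCG effect of Sgk1 to 0.06, and 5 members were called in BAT day 4 EGCG against control and 6 in the WAT test of the day change with EGCG. The same fit without the third WAT day 8 EGCG library (chosen after seeing the data) gave 0.10, -0.06, -0.25, -0.06 and 0.04, with 5 and 6 members called, and 0.00 for the depot difference of the day 4 EGCG effect of Tsc22d3. Median-ratio scaling gave -0.05 for Nr3c1 in WAT day 4 EGCG against control and -0.17 for Dusp1 in WAT day 8 EGCG against control, and quantile normalization gave -0.15 for the latter, -0.01 for Fkbp5 in day 4 EGCG BAT against WAT, 0.01 for the day 8 EGCG effect of Sgk1 between depots and 5 members called in the WAT test of the day change. Without the filter 3 members were called in the depot test of the control day change. The cause was not tested.

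Leaving out 1 replicate at a time, the members called ranged from 3 to 7 in the depot test of the control day change, from 3 to 4 in day 4 controls BAT against WAT, from 2 to 3 in day 4 EGCG BAT against WAT and from 2 to 6 in the WAT test of the day change. Values that changed sign ranged from -0.55 to 0.41 (Fkbp5) and -0.58 to 0.24 (Zbtb16) for the WAT control day change, from -0.26 to 0.29 for Dusp1 in WAT day 8 EGCG against control, from -0.17 to 1.17 for Tsc22d3 in day 8 controls BAT against WAT, from -0.10 to 0.00 for Nr3c1 in BAT day 4 EGCG against control, and from -0.14 to 0.18 (Hsd11b1) and -0.14 to 0.01 (Dusp1) for the BAT EGCG day change. In the depot test of the control day change they ranged from -0.46 to 0.49 (Hsd11b1) and -0.99 to 0.35 (Tsc22d3), in the WAT test of the day change from -0.69 to 0.27 (Fkbp5) and -0.49 to 0.06 (Dusp1), and for the day 8 EGCG effect of Sgk1 between depots from -0.30 to 0.13. A lone remaining library was assumed to vary like the other groups.

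Replicate numbers did not pair the libraries: over 28 pairs of groups the deviations of same-numbered libraries correlated at -0.079 to 0.081. With the replicate block 2 members instead of 3 were called in BAT day 4 EGCG against control, 4 instead of 5 in the depot test of the control day change and 5 instead of 4 in the WAT EGCG day change. Median-ratio scaling shifted the median of all genes by 0.118 in the BAT control day change, -0.11 and -0.16 in WAT day 4 and day 8 EGCG against control, -0.149 in BAT day 8 EGCG against control and -0.134 in day 4 controls BAT against WAT, and by -0.116 in the BAT test of the day change. The same scaling moved the share of calls that were higher from 67.6% to 56.9% in day 4 EGCG BAT against WAT, from 62.8% to 49.3% in the BAT test of the day change, from 37.1% to 54.7% in the depot test of the control day change and from 42.7% to 61.5% in that of the day 4 EGCG effect, and quantile normalization moved it from 67.6% to 50.7% in day 4 EGCG and from 63.6% to 53.4% in day 8 EGCG BAT against WAT.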
